A study of Homo sapiens with 6 samples.

Results

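The interferon response and class I antigen presentation genes described here are a set of 50 named genes, taken as every row of the deposited table whose gene symbol is on that list. Of these, 42 were among the 16792 genes of the table and could be analysed. The other 8 (HLA-F, OAS2, IFI27, IFI44, IFIT2, IFIT3, BST2 and XAF1) were not analysed here. RNA was profiled in 6 libraries of EndoC-βH1 (EndoCBH1 in the labels), an immortalised human pancreatic beta cell line. Cells of 3 libraries carried MNX1 siRNA (siMNX1, genotype given as MNX1 knock down) and cells of the other 3 carried a non-targeting siRNA (siNT, genotype given as WT). All 6 libraries thus came from siRNA-transfected cells of 1 line, and untransfected cells were not analysed here. The labels leave out the siRNA sequences, the dose, the time after transfection and whether replicates were separate cultures. The p-values therefore reflect library-to-library spread alone, which may be technical.

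Cells that detect foreign RNA, including double-stranded RNA, can make interferons. Type I interferons bind a receptor built from IFNAR1 and IFNAR2, and interferon gamma binds one built from IFNGR1 and IFNGR2. Their kinases activate STAT factors. STAT and IRF factors bind short DNA elements (the ISRE and the GAS) near interferon-stimulated genes. Among those genes are antiviral effectors and the machinery that cuts proteins into peptides, moves them into the endoplasmic reticulum and displays them on class I molecules. In beta cells this display is studied because cytotoxic T cells recognise it in type 1 diabetes.

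The DNA elements are shown first because interferon acts on its target genes through them. Windows from 250 bases before to 50 bases after each transcription start were taken from RefSeq (GRCh38.p14), and 35 of the 42 analysed members had one. HLA-E, NLRC5, IFNAR2, IRF2, IRF3, IRF7 and DHX58 had none. Both strands were searched for an ISRE core, written as GAAA, any 2 bases, GAAA, and for a GAS core, written as TTC, any 3 bases, GAA. An ISRE core lay in the windows of 15 of the 35 members (42.9%), against 4.38% of 27305 genes with a window. A GAS core lay in those of 7 of the 35, against 9.38% of all genes. By role, an ISRE core was found for 5 of 6 peptide supply and loading genes, 6 of 8 interferon-induced effectors, 3 of 8 RNA sensing genes and 1 of 3 class I genes, and for 0 of 5 receptor and kinase genes and 0 of 4 transcription factors. Such matches describe the letters of a window and are not evidence of binding. Stretches from 7 members are given here, 5′ to 3′ on the strand of the gene, because they include the member that passed the threshold (IFI6), classical interferon targets and the class I light chain. Cores are in capitals, and TTTC is GAAA read on the other strand.

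The IFI6 stretch (chr1:27672256-27672368, minus strand) held 3 ISRE cores, which began at -156, -115 and -93 from the start.
IFI6: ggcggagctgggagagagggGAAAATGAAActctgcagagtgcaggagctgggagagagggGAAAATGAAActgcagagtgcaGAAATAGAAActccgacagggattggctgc
The stretches of ISG15 (chr1:1013364-1013419, plus strand), IFIT1 (chr10:89392487-89392549, plus strand) and B2M (chr15:44711353-44711408, plus strand) each held 2 ISRE cores, which overlap in ISG15 and B2M.
ISG15: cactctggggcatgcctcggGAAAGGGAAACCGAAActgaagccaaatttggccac
IFIT1: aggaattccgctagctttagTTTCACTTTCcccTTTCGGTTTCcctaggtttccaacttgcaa
B2M: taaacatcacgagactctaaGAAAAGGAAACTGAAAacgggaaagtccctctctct
The stretches of OAS1 (chr12:112906774-112906822, plus strand), IRF9 (chr14:24161182-24161230, plus strand) and IRF1 (chr5:132490869-132490917, minus strand) each held 1 GAS core.
OAS1: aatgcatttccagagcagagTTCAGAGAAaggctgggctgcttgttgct
IRF9: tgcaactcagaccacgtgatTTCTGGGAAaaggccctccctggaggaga
IRF1: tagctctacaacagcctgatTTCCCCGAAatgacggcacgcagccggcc

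The libraries were checked before the members were compared. Deposited totals lay between 18406479 and 18704645 normalized counts and follow the normalization, so the depth is unknown. MNX1 itself had 2039, 2033 and 1988 normalized counts in siNT and 1885, 1708 and 1751 in siMNX1, lower in 3 of 3 siMNX1 libraries but short of the threshold (limma, adjusted p = 0.116). All 12 fixed beta cell markers were listed, with INS between 107169 and 130171. Their summed level was 282068 to 293735 in siNT and 356603 to 370818 in siMNX1, a sum carried by CHGA and INS. Singly, 6 of the 12 had log2 fold changes above 0 and 6 below. By limma 4 (MAFA, PTPRN, CHGA and PCSK1) were called higher, where 1.99% of all genes were. Only 1, IAPP, was called lower (57.8 to 15.3 normalized counts, log2 fold change -1.84, limma, adjusted p = 0.0123), where 1.33% of all genes were. Of fixed markers of other cells, 1 of 15 immune, 0 of 6 endothelial, 2 of 8 mesenchymal and 2 of 8 acinar and ductal genes were among the genes analysed. The immune one was CD68, at 1352 to 1546 in siNT and 1120 to 1377 in siMNX1. The mesenchymal pair summed to 20.3 to 57.1 in siNT and 40.0 to 53.7 in siMNX1, and the acinar and ductal pair to 1740 to 1832 and 1891 to 2007. Of that pair only KRT19 had no overlap (1199 ± 84.7 and 1367 ± 48.7), while CPA1 overlapped (591 ± 43.0 and 585 ± 10.4). The libraries came from 1 beta cell line, and the part of any other cells in a member's value was not tested. The first principal component (29.4% of the variance) separated the groups, with siNT between -22.8 and -20.0 and siMNX1 between 18.1 and 23.4. On the second (20.1%) siMNX1 replicates 1 and 2 lay at opposite ends (-29.4 and 31.7), with the other libraries between -2.40 and 2.66.

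Few interferon and presentation genes were called between MNX1 siRNA and the non-targeting siRNA, and most differences were small. Of the 42 members, 0 were higher and 1 (IFI6) was lower past an adjusted p of 0.05 by limma. Among all genes tested 1.99% were higher and 1.33% lower, so 1 call among 42 members is near the background. At an unadjusted p under 0.05, limma placed 6 members higher and 6 lower, 28.6% of members together. Among all genes 9.81% were higher and 8.56% lower, 18.4% together. The 3 siMNX1 values lay wholly above the siNT values for 5 members and wholly below for 8, against 12.0% and 12.1% of all genes. The members' log2 fold changes ran from -0.39 (ISG15) to 0.63 (HLA-B) with a median of -0.04, beside a median of -0.00045 over all genes. The median size of change, regardless of sign, was 0.0956 for members and 0.128 for all genes on the log2 scale.

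The intervals limit how large an undetected change could be. For 34 of the 42 members the 95% interval of the fold change lay within 1.5-fold in either direction, as it did for 67.1% of all genes. The 8 exceptions were HLA-B, TAP2, NLRC5, IRF9, DHX58, IFIT1, ISG15 and ISG20. Every member but HLA-B had an interval within 2-fold. Interval widths follow expression level and spread, and the members' levels were not matched to those of all genes.

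**Figure D1:**
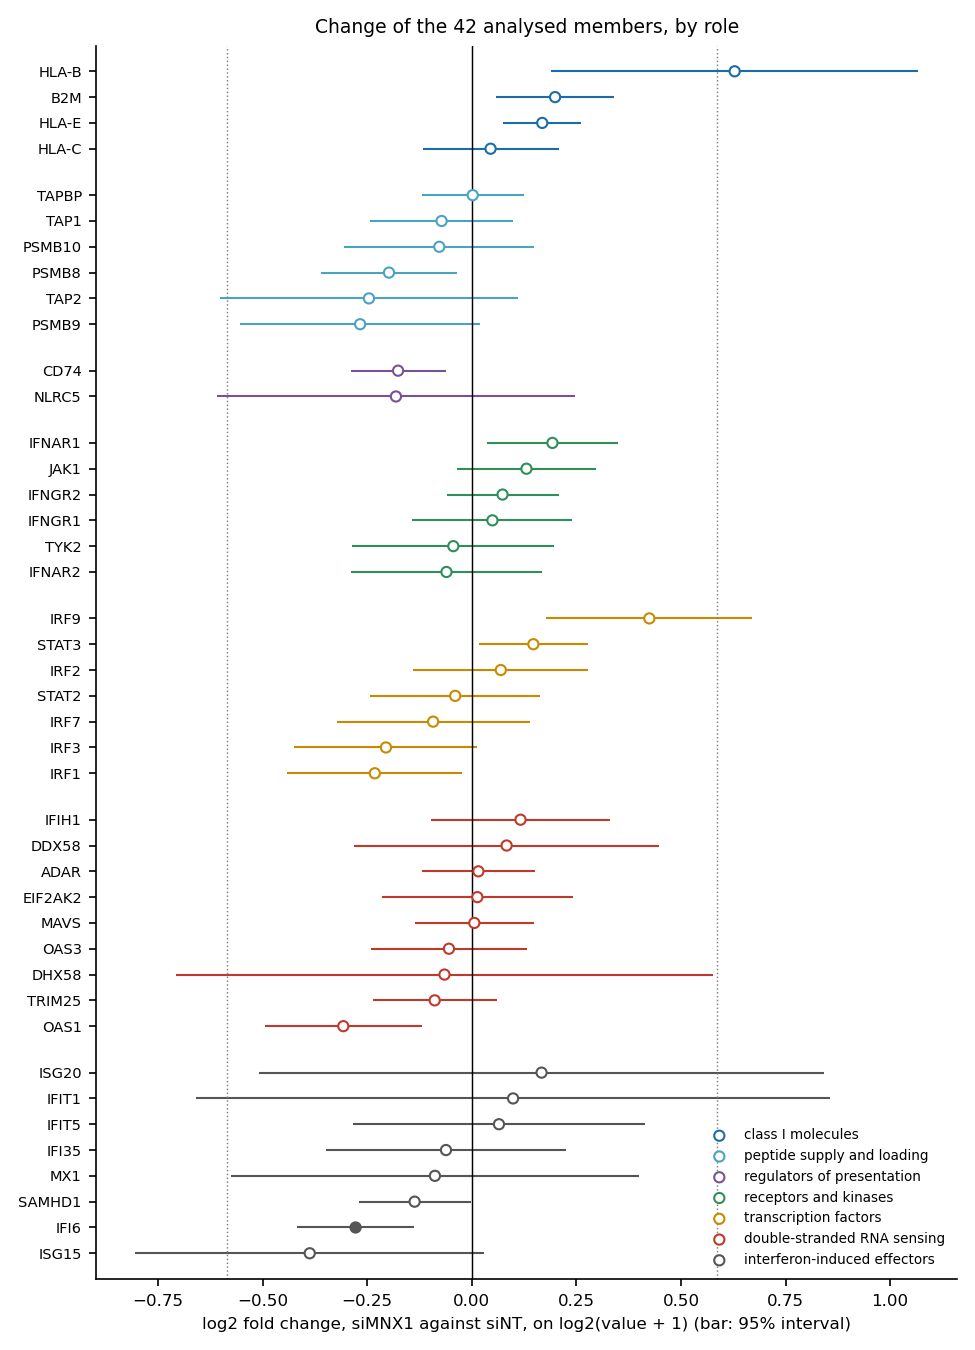
Log2 fold change of each of the 42 analysed members (x axis, siMNX1 against siNT on log2(value + 1)) with its 95% interval, grouped by role. Dotted lines mark 1.5-fold. The filled point, IFI6, is the only member with an adjusted p under 0.05 by limma, and HLA-B has the interval that reaches furthest to the right.

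Class I molecules carry peptides to the cell surface. All 4 analysed genes of this role had log2 fold changes above 0, and 0 passed the threshold. HLA-E (chromosome 6, 30489467 to 30494205, plus strand, GRCh38), a non-classical heavy chain recognised by natural killer cell receptors, had 5179, 5079 and 5279 in the siNT libraries, in replicate order here and throughout. In siMNX1 it had 5789, 5879 and 5791. The groups did not overlap and replicates lay close together, with a mean difference of 12.4% (log2 fold change 0.17, SE 0.04, limma, adjusted p = 0.0606). B2M (chromosome 15, 44711487 to 44718877, plus strand), the light chain shared by all class I molecules, had 8418, 9284 and 8382 in siNT. Its siMNX1 values were 10639, 9201 and 10124. Of these, siMNX1 replicate 2 fell inside the siNT range and the other 2 libraries lay above it (log2 fold change 0.20, SE 0.06, limma, adjusted p = 0.129). Without siMNX1 replicate 2, B2M passed the threshold (log2 fold change 0.26, limma, adjusted p = 0.0484), within adjusted p of 0.0484 to 0.324 over all settings.

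The classical heavy chains HLA-B and HLA-C present peptides to cytotoxic T cells. HLA-B had 72.5, 63.4 and 61.2 normalized counts in siNT. In siMNX1 it had 132, 96.8 and 82.7, all above the siNT values and widely spread. Its log2 fold change of 0.63 had a 95% interval from 0.19 to 1.07 (limma, adjusted p = 0.123). HLA-C had 1019 ± 39.0 in siNT and 1053 ± 83.3 in siMNX1 (SD, n = 3 libraries each), and the groups overlapped. Class I heavy chains resemble each other and vary between genomes, and the annotated extents of HLA-B and HLA-C overlap in part on the same strand in GENCODE 29, so the split of reads among them is uncertain.

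Peptides are cut by the immunoproteasome and pumped into the endoplasmic reticulum by the transporter TAP1 and TAP2, where tapasin (TAPBP) loads them. Of these 6 genes, 5 had log2 fold changes below 0, 0 passed the threshold and 1 (PSMB8) had an unadjusted p under 0.05. PSMB8, an inducible catalytic subunit, had 546, 561 and 535 in siNT. Its siMNX1 values were 498, 467 and 465, all below the siNT values (log2 fold change -0.20, limma, adjusted p = 0.184). PSMB9, the second inducible subunit, had 170, 191 and 150 in siNT against 139, 147 and 137 in siMNX1, again with no overlap (log2 fold change -0.27, limma, adjusted p = 0.305). The third, PSMB10, had 227 ± 13.1 and 215 ± 8.02, with overlap.

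The transporter genes overlapped between groups. TAP1 had 573 ± 38.1 in siNT and 544 ± 4.62 in siMNX1, and TAP2 had 899 ± 217 and 749 ± 109, where siNT replicate 2 alone reached 1138. TAPBP was the closest to equal of all members, at 2060 ± 22.4 and 2064 ± 102 (log2 fold change 0.002, interval -0.12 to 0.12). PSMB8, PSMB9 and TAP1 overlap each other or PSMB8-AS1 in the annotation. The handling of strand is not given in the sources used here, so their reads cannot be told apart in the shared parts.

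Regulators of presentation were CD74 and NLRC5. CD74 (chromosome 5, 150401637 to 150412929, minus strand), the invariant chain that guides class II molecules, had 4426, 4685 and 4627 in siNT. Its siMNX1 values were 4269, 3911 and 3984, all below the siNT values (log2 fold change -0.18, SE 0.05, limma, adjusted p = 0.0975). Its class II partners HLA-DRA, HLA-DPA1 and HLA-DQA1 were not analysed here. NLRC5, the transactivator of class I genes, had 191, 126 and 132 in siNT against 135, 107 and 152 in siMNX1. Those NLRC5 groups overlapped, and siNT replicate 1 was the highest (log2 fold change -0.18, interval -0.61 to 0.25).

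**Figure D2:**
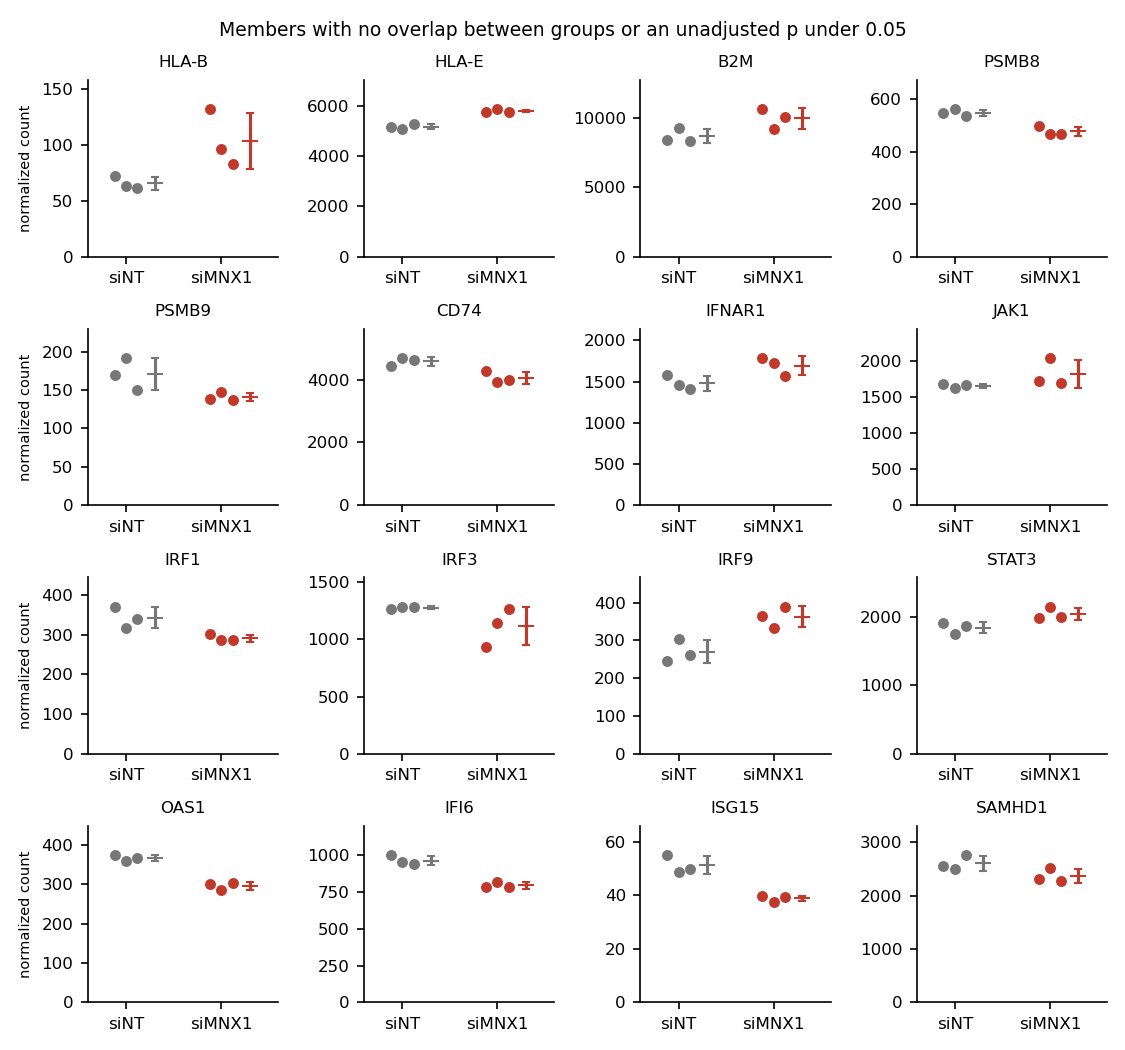
Normalized counts (y axis, from 0) of the 16 members whose groups did not overlap or whose unadjusted p was under 0.05, with 1 point per library and mean ± SD beside them (n = 3 per group). The siMNX1 points of HLA-B are spread widely for their mean (104 ± 25.4), while HLA-E, OAS1 and IFI6 show small shifts with tight replicates.

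Receptor and kinase genes gave no calls. Of 6 genes, 0 passed the threshold and all 6 intervals lay within 1.5-fold. IFNAR1, a chain of the type I interferon receptor, had 1580, 1454 and 1406 in siNT and 1785, 1725 and 1567 in siMNX1. The lowest siMNX1 value lay inside the siNT range (log2 fold change 0.19, limma, adjusted p = 0.177). JAK1, a kinase bound to both receptor types, had 1689, 1628 and 1665 in siNT. Its siMNX1 values were 1723, 2045 and 1704, all above siNT, with siMNX1 replicate 2 far from the other two (log2 fold change 0.13, limma, adjusted p = 0.389). IFNAR2 (513 ± 28.5 and 494 ± 60.6), IFNGR1 (751 ± 79.3 and 775 ± 33.4), IFNGR2 (1098 ± 26.4 and 1156 ± 47.0) and the kinase gene TYK2 (1892 ± 167 and 1845 ± 290) overlapped between siNT and siMNX1.

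Of the 7 transcription factors of the pathway, 0 passed the threshold, and 3 had log2 fold changes above 0 and 4 below. IRF9 (chromosome 14, 24161053 to 24166565, plus strand), the DNA-binding subunit that joins STAT2 in the complex ISGF3, had 245, 305 and 262 in siNT. It had 365, 334 and 389 in siMNX1, with no overlap and a mean 34.0% higher (log2 fold change 0.42, SE 0.11, limma, adjusted p = 0.0724). Its partner STAT2 had 913 ± 85.2 and 888 ± 78.9, with overlap. IRF1, an activator of class I genes that carries the GAS core shown above, had 371, 318 and 339 in siNT and 302, 286 and 286 in siMNX1, with no overlap in the opposite direction (log2 fold change -0.23, limma, adjusted p = 0.219).

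STAT3, a factor shared with interleukin 6 signalling, had 1902, 1750 and 1869 in siNT and 1983, 2144 and 1988 in siMNX1, with no overlap (log2 fold change 0.15, limma, adjusted p = 0.213). IRF3, the factor that RNA sensors activate first, had 1264, 1281 and 1287 in siNT. Its siMNX1 values of 938, 1148 and 1263 were spread widely, and the highest lay just under the lowest siNT value (limma, adjusted p = 0.302). IRF2, which competes with IRF1 for DNA, and IRF7, which amplifies type I interferon production, overlapped between groups (328 ± 26.9 and 343 ± 9.80 for IRF2, 437 ± 21.9 and 411 ± 49.4 for IRF7). IRF1, IRF3, IRF9, JAK1, IFNAR2, IFNGR2, TAP2, PSMB10, TRIM25, EIF2AK2, IFIT1 and SAMHD1 each overlap another annotated gene, so part of their reads is uncertain as well.

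Sensing of double-stranded RNA was examined because both groups received siRNA. Of 9 analysed members, 0 passed the threshold, 5 had log2 fold changes above 0 and 4 below, and the median was 0.006. The cytosolic sensors stood at 329 ± 27.6 and 356 ± 18.2 for IFIH1, which encodes MDA5, and at 77.3 ± 10.7 and 81.6 ± 4.82 for DDX58, which encodes RIG-I. DHX58, which modulates both, had 66.6 ± 22.4 and 63.3 ± 19.0, with an interval from -0.71 to 0.58 on the log2 scale. MAVS, the adaptor on mitochondria that both sensors need, had 5731, 5351 and 5612 in siNT and 5171, 6120 and 5506 in siMNX1. Its groups overlapped, with siMNX1 replicate 2 the highest and replicate 1 the lowest of all 6. TRIM25, a ubiquitin ligase that acts on RIG-I, had 1839 ± 60.7 and 1732 ± 133.

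Effector enzymes that bind double-stranded RNA also gave 0 calls. OAS1 (chromosome 12, 112906777 to 112933222, plus strand), which makes the messenger that activates RNase L, had 373, 359 and 367 in siNT and 301, 284 and 302 in siMNX1. The groups did not overlap and replicates lay close together (log2 fold change -0.31, SE 0.08, limma, adjusted p = 0.0831). Its neighbour OAS3 had 1754 ± 111 and 1693 ± 182, with overlap. EIF2AK2, which encodes the kinase PKR, had 1366 ± 91.5 and 1387 ± 211. ADAR, which edits double-stranded RNA, had 3850, 3835 and 4077 in siNT and 3836, 4306 and 3765 in siMNX1, with overlap (log2 fold change 0.02, interval -0.12 to 0.15).

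Among interferon-induced effectors, IFI6 fell slightly. IFI6 (chromosome 1, 27666061 to 27672218, minus strand), an interferon-induced protein of mitochondria and the endoplasmic reticulum that restrains apoptosis, had 999, 952 and 939 in siNT. It had 782, 820 and 782 in siMNX1, all below the siNT values, for a log2 fold change of -0.28 (SE 0.06, interval -0.42 to -0.14, limma, adjusted p = 0.0442). The call ended whichever of the 6 libraries was left out (limma, adjusted p from 0.0561 to 0.138). It also ended without the variance trend (limma, adjusted p = 0.106) and with the replicate number in the model (limma, adjusted p = 0.121). The log2 fold change stayed between -0.30 and -0.25.

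ISG15, a ubiquitin-like modifier, had 54.95, 48.67 and 49.96 in siNT and 39.7, 37.7 and 39.2 in siMNX1. Its groups did not overlap, and its interval was wide at this low level (log2 fold change -0.39, interval -0.80 to 0.03, limma, adjusted p = 0.306). SAMHD1, which depletes nucleotides needed by viruses, had 2553, 2498 and 2754 in siNT. Its siMNX1 values were 2313, 2508 and 2278, and siMNX1 replicate 2 lay inside the siNT range (log2 fold change -0.14, limma, adjusted p = 0.262). MX1, a GTPase that blocks influenza, had 41.5 ± 6.37 and 38.8 ± 4.57. IFIT1, which binds foreign capped RNA, had 27.3 ± 12.3 and 27.7 ± 4.46, and its relative IFIT5 had 133 ± 18.2 and 140 ± 19.7. ISG20, a nuclease, had 19.5 ± 5.42 and 21.7 ± 3.71, and IFI35, a partner of NMI, had 273 ± 15.9 and 264 ± 41.7. These 5 genes overlapped between groups.

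**Figure D3:**
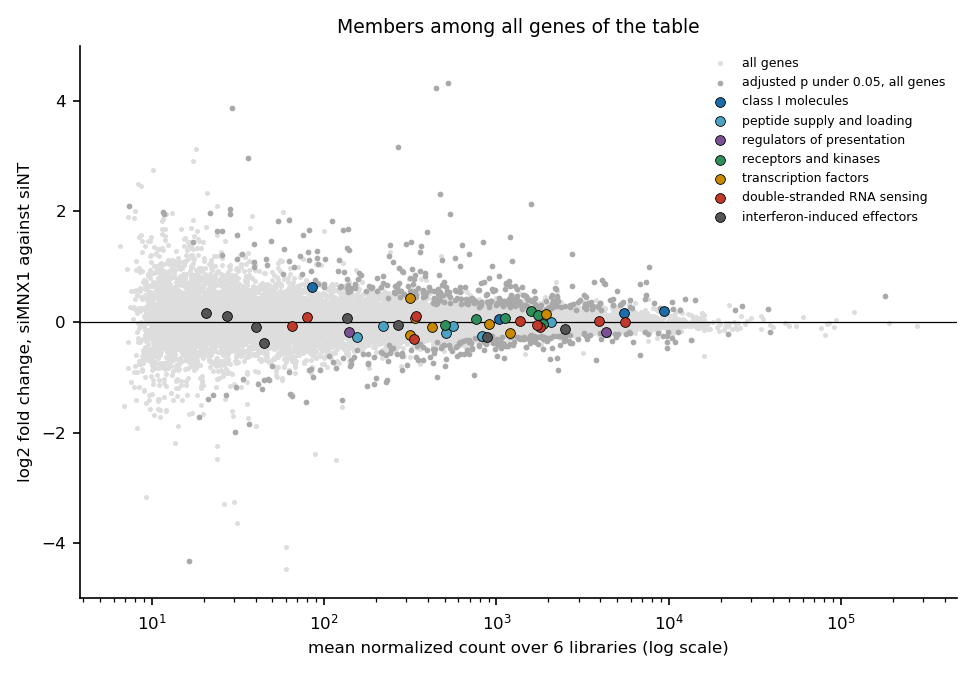
Log2 fold change (y axis) against mean normalized count over 6 libraries (x axis, log scale) for all 16792 genes, with the 42 members coloured by role and genes past an adjusted p of 0.05 in darker grey. Members lie between -0.39 and 0.63 on the y axis.

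Levels between genes were compared as normalized counts per kb of annotated exon (GENCODE 29), a rough scale because the isoforms used are unknown. In siNT the highest members were HLA-E at 1741 per kb, CD74 at 1438, B2M at 1430 and IFI6 at 1114. HLA-C and TAPBP stood at 407 and 407 per kb, and MAVS at 473. Interferon-induced genes at the other end were IFIT1 at 5.92, MX1 at 4.82 and ISG20 at 2.65 per kb. Those 3 stood at 6.00, 4.51 and 2.95 per kb in siMNX1. Effectors thus spanned nearly the whole range, with IFI6 among the 4 highest members and IFIT1, MX1 and ISG20 the 3 lowest in both groups.

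**Figure D4:**
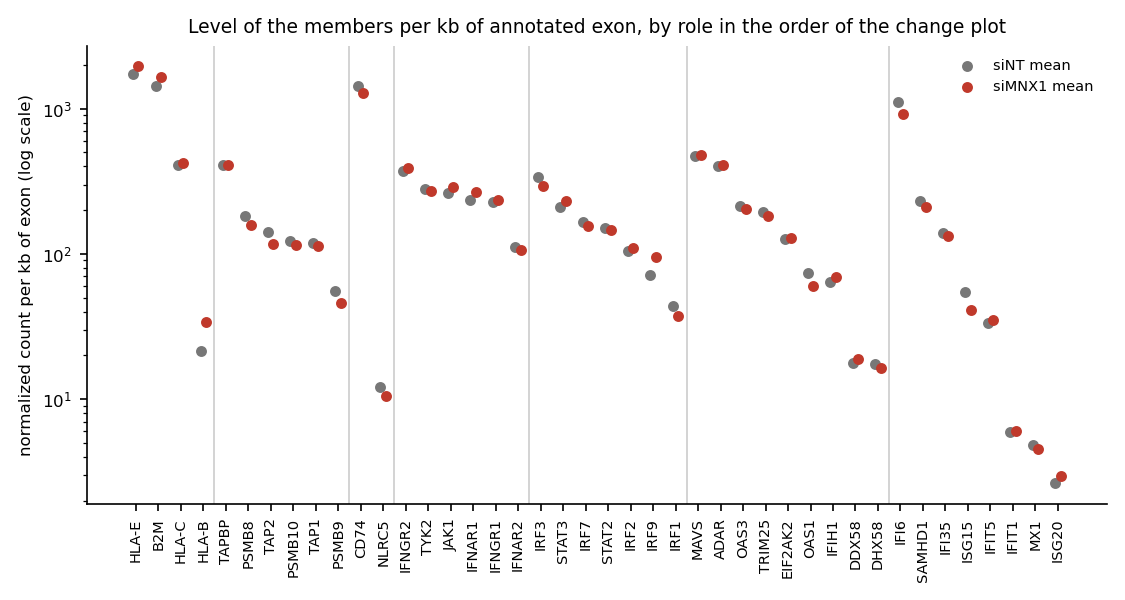
Mean normalized count per kb of annotated exon (y axis, log scale) of each of the 42 members in siNT (grey) and siMNX1 (red), with vertical lines between roles. Levels span from 2.65 (ISG20) to 1741 (HLA-E) in siNT, and the paired points nearly coincide for most members.

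Members with and without an ISRE core were set side by side. Of the 15 with one, 8 had log2 fold changes below 0 and 7 above (median -0.05), and IFI6 was the 1 call. Of the 20 without, 9 were below and 11 above (median 0.01), with 0 calls. Of the 7 with a GAS core, 6 were below 0 and 1 (IRF9) above, with a median of -0.09 and 0 calls. For the 28 without a GAS core, 11 were below 0 and 17 above, with a median of 0.01 and IFI6 as the 1 call. TAP1, PSMB8 and MX1 held both cores, so the GAS and ISRE groups share members.

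Other genes of the pathway were read against the same background of 1.99% higher and 1.33% lower among all genes. Of 39 analysed further interferon-stimulated genes, 0 were higher and 2 (5.13%) lower, and their median was -0.02. IFI30, a lysosomal reductase that prepares antigens, had 946, 1056 and 975 in siNT and 820, 710 and 736 in siMNX1 (log2 fold change -0.39, limma, adjusted p = 0.0259). CNP, a phosphodiesterase of myelin that interferon induces, had 1839, 1806 and 1788 against 1559, 1514 and 1468 (log2 fold change -0.26, limma, adjusted p = 0.0299). In both genes every siMNX1 value lay below every siNT value. Left-out libraries ended the CNP call in 6 of 6 cases (limma, adjusted p from 0.0542 to 0.112). They ended the IFI30 call in 5 of 6 (up to 0.106), all but siMNX1 replicate 1 (0.0301).

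The chaperones and peptidases of antigen processing gave 0 calls of 23, with a median of -0.04. At an unadjusted p under 0.05 by limma, 0 were higher and 4 lower, 17.4% together. Among all genes 9.81% were higher and 8.56% lower, 18.4% together. The 2 most abundant encode chaperones of peptide loading. CALR had 21745, 21881 and 22175 in siNT and 21887, 20743 and 21577 in siMNX1, with overlap. PDIA3 had 19143, 17047 and 16960 against 16777, 15693 and 16058, with no overlap (log2 fold change -0.13, limma, adjusted p = 0.241). Of 18 genes that restrain interferon signalling, 0 were higher and 1 (5.56%) lower (median -0.03). It was SOCS1, a feedback inhibitor of JAK kinases, which had 192, 177 and 181 in siNT and 126, 129 and 132 in siMNX1, with no overlap (log2 fold change -0.50, SE 0.11, limma, adjusted p = 0.0423). Every left-out library ended the SOCS1 call (limma, adjusted p from 0.0798 to 0.143). The SOCS1 window held 1 ISRE core, at -113 from the start. Windows of the other called genes of these lists (IFI30, CNP and IKBKE, given below) held neither core.

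The check for siRNA sensing used 38 further genes of RNA sensing and its signalling, of which 23 were analysed. The endosomal receptors TLR3, TLR7 and TLR8 and the outputs IFNB1, IFNL1, CXCL10 and IL6 were not analysed here. Of the 23, 1 was higher and 0 lower past the threshold, and the median was 0.001. At an unadjusted p under 0.05 by limma, 2 were higher and 1 lower, 13.0% together. Among all genes 9.81% were higher and 8.56% lower, 18.4% together. The call was IKBKE, a kinase that phosphorylates IRF3 and IRF7. It had 393, 363 and 344 in siNT and 528, 572 and 565 in siMNX1, with no overlap (log2 fold change 0.60, SE 0.08, interval 0.41 to 0.79, limma, adjusted p = 0.00538). IKBKE passed in 15 of 15 alternative settings (limma, adjusted p from 0.00418 to 0.0387). IKBKE overlaps C1orf147, CNP overlaps DNAJC7 and SOCS1 overlaps RMI2 on the opposite strand, and IFI30 overlaps another annotated gene on its own strand. Reads cannot be told apart where these genes overlap. Since both groups carried siRNA, these values compare one siRNA treatment with another, and a response common to both was not measured.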

How the data were processed

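The authors deposited 1 table of normalized counts per gene (a signal with decimals, never negative) for 6 libraries. The submitters' processing notes name DESeq, R 3.6.3, DESeq2 (1.26.0), RSEM (1.3.1) and STAR (2.7.6a) with build GRCh38, in no stated role. They do not state the annotation, gene filter or strand handling. Between 25.8% and 47.4% of values under 10 lay within 0.02 of a whole multiple of 1 step, so whole reads were not recovered, no count model was fitted and no counting interval given. No value above 0 was shared between libraries. The lowest mean over the 6 libraries was 6.57, so a minimum mean of 5 removed 0 genes.

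Groups came from sample titles. Values were analysed as log2(value + 1) with limma 3.58.1 (R 4.3.3), a variance trend and Benjamini-Hochberg adjustment over all 16792 genes, at a threshold of 0.05. This scale understates changes of low genes. The procedure was tested on simulated data with 200 changed genes. It recovered 14% of 1.25-fold, 58% of 1.5-fold and 70% of 2-fold changes, and 4.1% of its calls were false. Most 1.25-fold changes were thus missed. Alternatives were other pseudocounts, filters, scalings and variance models, a replicate block and each library left out. Members and lists were chosen with earlier results of these data known. Values per library are given for members past the threshold, with an unadjusted p under 0.05 or with no overlap between groups, or, in a role with fewer than 2 of these, the 2 most abundant, and for called genes of other lists (where none, the 2 most abundant). RefSeq windows were matched by symbol, and positions came from GENCODE 29. Tables and plots used pandas 2.3.3, matplotlib 3.10.9, scipy 1.17.1 and numpy 2.4.6 under Python 3.11.15.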

Additional observations from a re-analysis of the deposited data

How the results depend on the processing

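Over 15 alternatives, 25 of the 42 members kept the sign of their log2 fold change throughout. The count of members called was 0 higher and 1 lower, and it was 0 lower without the variance trend and with the replicate block (IFI6, limma, adjusted p = 0.106 and 0.121). With libraries left out it was 0 to 1 higher (B2M, without siMNX1 replicate 2) and 0 lower in every case. At an unadjusted p of 0.05 limma gave 6 higher and 6 lower members. For the other pathway lists (1 higher, 3 lower) the unadjusted counts were 7 and 20, where 9.81% of all genes were higher and 8.56% lower. They gave 2 higher with a minimum mean of 50 and with equal upper quartiles (ZNFX1 added, also named after its values were seen, limma, adjusted p = 0.0442 and 0.0499), 1 lower without the variance trend and 0 lower with the replicate block. Left-out libraries gave 1 to 2 higher and 0 to 1 lower, where AGO4 (without siNT replicate 1, limma, adjusted p = 0.0268), TNRC6C (without siMNX1 replicate 1, 0.0482) and THOP1 (lower, without siMNX1 replicate 3, 0.049) passed, named after their values were seen. Deviations of same-numbered libraries correlated at -0.0135, -0.00855 and -0.0377, so no shared deviation was seen. Such correlations cannot tell whether the replicate numbers mark a pairing by design. All-gene calls were 162 higher and 75 lower with the replicate block (335 and 223 without) and 131 and 60 without the variance trend, and left-out libraries gave 133 to 257 higher and 64 to 179 lower.

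Log2 fold changes whose sign turned lay near 0 or had wide spread. With equal totals and equal upper quartiles TAPBP had -0.0017 and -0.0023, and TNRC6A -0.0030 and -0.0036. Over left-out libraries the ranges were -0.016 to 0.095 for HLA-C, -0.021 to 0.044 for TAPBP, -0.294 to 0.0042 for NLRC5, -0.1197 to 0.045 for IFNAR2, -0.014 to 0.132 for IFNGR1, -0.164 to 0.057 for TYK2, -0.000701 to 0.106 for IRF2, -0.149 to 0.011 for IRF7 and -0.117 to 0.023 for STAT2. They were -0.284 to 0.183 for DHX58, -0.060 to 0.062 for MAVS, -0.105 to 0.105 for EIF2AK2, -0.044 to 0.052 for ADAR, -0.135 to 0.018 for OAS3, -0.161 to 0.068 for IFI35, -0.216 to 0.419 for IFIT1, -0.038 to 0.164 for IFIT5 and -0.025 to 0.024 for TNRC6A. With 1, 2 or 3 bases between the GAAA copies, the ISRE core lay in windows of 54.3% of members and 10.5% of all genes. The cause of these shifts was not tested.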

Other observations

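The constitutive proteasome core, the ring that the inducible subunits PSMB8, PSMB9 and PSMB10 enter in place of standard ones, had log2 fold changes below 0 for 14 of 14 genes, from -0.16 to -0.004 with a median of -0.11. Limma called 0 of them. At an unadjusted p under 0.05 by limma, 0 were higher and 6 lower, 42.9% together. Among all genes 9.81% were higher and 8.56% lower, 18.4% together. For 9 (64.3%) the siMNX1 values lay wholly below the siNT values, where 12.1% of all genes did. PSMA7 had 6572, 6426 and 6377 normalized counts in siNT and 6013, 5792 and 5745 in siMNX1 (limma, adjusted p = 0.106). PSMB2 had 3381, 3151 and 3207 against 2822, 2997 and 2958 (limma, adjusted p = 0.154). The 3 inducible subunits had log2 fold changes of -0.20, -0.27 and -0.08.

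The machinery of RNA interference and microRNA processing, only part of which siRNAs use, gave 0 calls of 11 by limma, with a median of 0.05. At an unadjusted p under 0.05 by limma, 2 were higher and 0 lower, 18.2% together. Among all genes 9.81% were higher and 8.56% lower, 18.4% together. DICER1, which cuts precursors into short RNAs, had 3392, 3491 and 3413 in siNT and 3597, 5074 and 3371 in siMNX1, where siMNX1 replicate 2 stood far above the other 5 libraries. TNRC6A, a scaffold of the silencing complex, had 2508 ± 84.7 and 2509 ± 69.1, with overlap. AGO4, an Argonaute protein named after its values were seen, had 271, 201 and 158 in siNT and 304, 311 and 361 in siMNX1, with no overlap (log2 fold change 0.66, limma, adjusted p = 0.0794, and 0.0268 to 0.212 over all settings).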
